A study of Nicotiana tabacum with 9 samples.

Results

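In tobacco (Nicotiana tabacum), 8 of the 69500 genes in the deposited table were expressed in every library of the genotypes M21 and G27 and were at or near 0 in every library of NC82. They were selected on these expression values. A gene was taken if it lay under 0.1 in each NC82 library and at 1 or more in each M21 and each G27 library, in the normalized expression unit of the authors' table. Because these values chose the genes, their levels in M21 and G27 against NC82 are described and not tested. The choice set no difference between M21 and G27, which was tested. Asking for 1 or more in both lines does leave out genes high in 1 line and low in the other.

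The libraries came from a study of the gene NtAN3 and leaf size, and M21 and G27 are genotypes set against NC82, the name of a flue-cured cultivar. All 9 libraries, 3 for each genotype, were made from young leaves at the squaring stage, when flower buds form. The labels give neither the change of NtAN3 that M21 or G27 carries, nor a promoter, nor the number of independent plants or events behind each. P-values therefore measure the spread between these samples, which may be technical.

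AN3 of Arabidopsis is a transcriptional co-activator that promotes cell proliferation in leaves through DNA-binding partners called growth-regulating factors. Tobacco is an allotetraploid, so many genes have a close copy from the other ancestral genome, and reads from close copies can be hard to assign. Expression values do not show whether a gene at 0 is present in the genome of that genotype. In whole leaves, fewer cells of a type and less RNA per cell cannot be told apart.

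The libraries were alike in their totals. Their summed values lay between 784281 and 790816 in M21, 778233 and 787000 in G27, and 771390 and 790519 in NC82. Relative depth, estimated from genes with few reads, was 0.794 to 0.901 in M21, 0.859 to 1.03 in G27 and 0.964 to 1.21 in NC82. Genes with the words of leaf antenna and RuBisCO small subunit proteins in their descriptions summed to 75300 to 86000 in M21, 78400 to 84200 in G27 and 73800 to 82800 in NC82, and 5 of these 107 genes were at 0 in every library. Genes of pollen and flower descriptions, which include the MADS-box family, summed to 2090 to 2160 in M21, 1900 to 2100 in G27 and 2060 to 2200 in NC82, and 182 of 397 were at 0 in every library. Genes of seed descriptions summed to 9840 to 10200 in M21, 10100 to 10500 in G27 and about 11100 in NC82, and 170 of 537 were at 0 in every library. Such sums can hide changes that cancel. By limma at an adjusted p under 0.05, 17 of 97 pollen and flower genes tested were higher and 26 lower in M21 against NC82. Of 211 seed genes, 36 were higher and 37 lower. That is 44.3% and 34.6% called, beside 19.6% of leaf genes and 24.3% of all genes tested. In G27 against NC82 the shares were 20.6% and 20.4%, beside 9.28% of leaf genes and 13.9% of all. On the third principal component, computed without the 8 genes and holding 11.7% of the variance, M21 replicate 3 (0.348), G27 replicate 1 (0.46) and NC82 replicate 1 (0.496) lay farthest from the middle library of their group. They are called the libraries that lay apart. The middle libraries were at -0.044, -0.049 and -0.117. On the other side were M21 replicate 2 (-0.375), G27 replicate 2 (-0.41) and NC82 replicate 3 (-0.308). In M21, replicate 2 was thus nearly as far from the middle as replicate 3.

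The 8 genes fell into a few kinds by the domains their descriptions give. The descriptions of Nitab4.5_0007303g0080 (a FAR1 DNA binding domain), Nitab4.5_0006891g0010 (an OB-fold with the domain DUF223) and Nitab4.5_0005967g0040 (a GRF-type zinc finger) name domains of proteins that bind nucleic acids. Those of Nitab4.5_0000494g0060 (a C2 domain), Nitab4.5_0001119g0120 (an EEIG1/EHBP1 N-terminal domain) and Nitab4.5_0000694g0020 (a protein kinase) name membrane-binding or signalling domains. Nitab4.5_0015229g0010 and Nitab4.5_0008086g0060 had no annotated domain. The table gives no gene names, and none of its identifiers matched the RefSeq gene table, so identifiers and domains are used throughout.

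Nitab4.5_0007303g0080, the FAR1-domain gene, had the highest mean of the 8 in both lines. FAR1 domains descend from transposases of the Mutator type, and FAR1 itself is a transcription factor of far-red light signalling in Arabidopsis. The gene stood at 4.01, 8.21 and 20.74 in M21 replicates 1 to 3, at 19.05, 17.55 and 12.67 in G27, and was listed at 0 in all 3 NC82 libraries. M21 replicate 3 was the highest of all libraries and M21 replicate 1 the lowest of the line libraries, a 5.17-fold range within M21 against 1.5-fold within G27. Its mean over the 6 line libraries, 13.7, was above that of 74.8% of the 33188 genes tested, whose median was 5.83.

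Nitab4.5_0006891g0010 carries an OB-fold, a small barrel that in many proteins binds single-stranded nucleic acid. It stood at 4.46, 3.62 and 5.75 in M21, at 5.87, 3.34 and 3.71 in G27, and at 0.04, 0.01 and 0 in NC82. M21 replicate 3 and G27 replicate 1 were high and close to each other, and the values of the lines overlapped.

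Nitab4.5_0005967g0040 has a GRF-type zinc finger, a motif named for 3 of its residues and found in DNA repair and topoisomerase proteins. It is unrelated to the growth-regulating factors that share the abbreviation. It stood at 4.25, 1.13 and 2.68 in M21, at 2.87, 2.67 and 2.83 in G27, and was listed at 0 in all NC82 libraries. The 3 G27 values lay within 1.07-fold of each other, while the M21 values spanned 3.76-fold and enclosed them.

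Among the membrane and signalling genes, Nitab4.5_0000494g0060 has a C2 domain, a fold that binds membrane lipids, often together with calcium. It stood at 2.11, 2.83 and 4.18 in M21, at 4.17, 1.88 and 1.74 in G27, and at 0 in the 3 NC82 libraries. As with the OB-fold gene, M21 replicate 3 and G27 replicate 1 were the high libraries, and the lines overlapped.

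Nitab4.5_0001119g0120 has an EEIG1/EHBP1 N-terminal domain, which is related to the C2 fold. It stood at 5.18, 4.58 and 4.76 in M21, at 1.49, 1.46 and 1.3 in G27, and at 0.06, 0.04 and 0.03 in NC82. It was the only one of the 8 whose M21 and G27 values did not overlap, with every M21 library above every G27 library.

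Nitab4.5_0000694g0020 is described as a protein kinase with a concanavalin A-like lectin/glucanase domain, an entry found in many plant receptor kinases. It stood at 1.88, 1.41 and 2.5 in M21, at 1.43, 1.7 and 1.11 in G27, and at 0 in each NC82 library. The lines overlapped, with M21 replicate 3 highest.

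Of the genes without a domain, Nitab4.5_0015229g0010 stood at 3.05, 3.08 and 3.83 in M21, at 2.46 to 4.68 in G27, and at 0 in all NC82 libraries. Nitab4.5_0008086g0060 had the lowest mean of the 8 in both lines, at 1.42, 1.16 and 1.42 in M21, 1.3, 1.43 and 1.1 in G27, and 0.02, 0.05 and 0.01 in NC82. In all, 5 of the 8 were listed at 0 in every NC82 library, 2 were above 0 in all 3 of them and 1 in some of them, and no NC82 value exceeded 0.06.

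**Figure D1:**
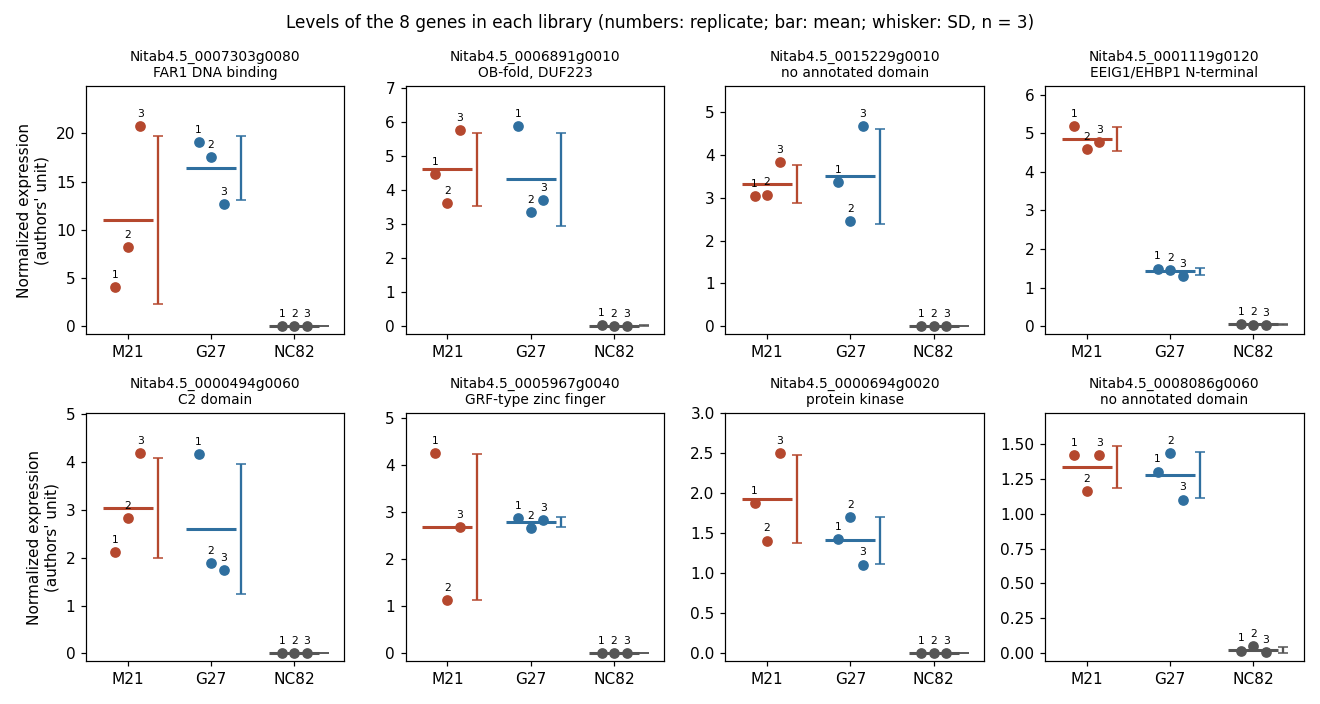
Normalized expression (vertical axis, in the authors' unit) of the 8 genes in each library of M21, G27 and NC82. Points are libraries with their replicate number, bars are means and whiskers are SD (n = 3); every line library stands at 1 or more and every NC82 library at 0.06 or less, and M21 is apart from G27 in the EEIG1/EHBP1-domain gene.

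By their mean in the 6 line libraries the genes ran from 13.7 for the FAR1-domain gene through 4.46 for the OB-fold gene, 3.41 for Nitab4.5_0015229g0010, 3.13 for the EEIG1/EHBP1-domain gene, 2.82 for the C2-domain gene, 2.74 for the zinc finger gene and 1.67 for the kinase to 1.3 for Nitab4.5_0008086g0060. These values are per length in either unit the table may use. Apart from the FAR1-domain gene, all lay below the median of the genes tested, and the lowest was above 7.03% of them. Neighbours in this order whose replicates overlapped in both lines were the OB-fold gene and Nitab4.5_0015229g0010, the C2-domain and zinc finger genes, and the kinase and Nitab4.5_0008086g0060. The FAR1-domain and OB-fold genes overlapped in M21 and not in G27, as did the zinc finger gene and the kinase. The EEIG1/EHBP1-domain gene overlapped neither of its neighbours, lying above both in M21 and below both in G27.

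The arrangement itself was uncommon in every direction. With the same cut-offs, 8 genes were expressed in M21 and G27 and low in NC82, against 1 gene expressed in NC82 and low in both lines. The 1 gene low in both lines was the MADS-box factor Nitab4.5_0000154g0260, of a family known for flower development, at 0, 0 and 0.08 in M21, 0 in each G27 library and 3.92, 3.3 and 5.11 in NC82. One gene without an annotated domain, Nitab4.5_0001653g0060, was low in G27 alone, at 0 in each G27 library against 2.83, 1.81 and 3.41 in M21 and 2.84, 3.41 and 5.33 in NC82. No gene was low in M21 alone, and none was expressed in M21 alone or in G27 alone. The counts carry no test, since NC82 serves both lines. By a looser measure, 40.3% of the genes tested had no overlap between M21 and NC82 in either direction, and 30.6% had none between G27 and NC82. That measure takes 1 line at a time and leaves out the cut-offs, so it is not a like background for these counts.

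**Figure D2:**
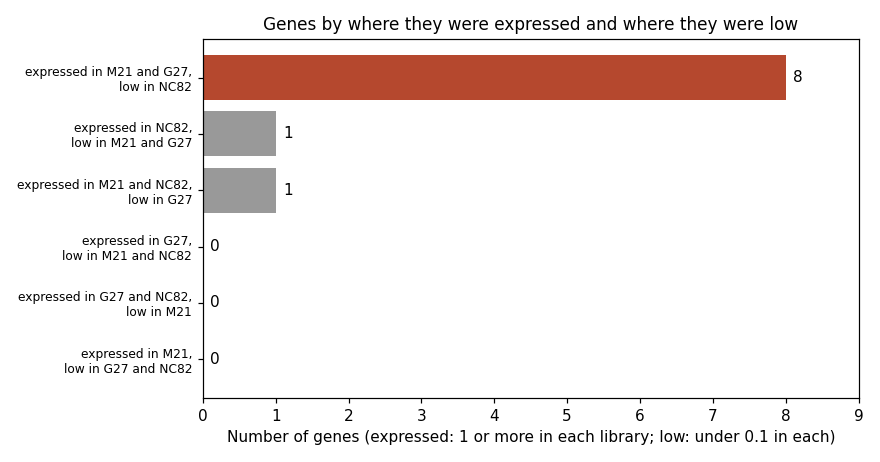
Number of genes (horizontal axis) for each arrangement of genotypes in which a gene was at 1 or more in every library (expressed) or under 0.1 in every library (low). The 8 genes of the first row outnumber the other arrangements, which hold 1, 1, 0, 0 and 0 genes.

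Considered one line at a time, 18 genes were expressed in M21 and low in NC82, and 16 in G27. The 8 genes make up 44.4% of the M21 genes and 50.0% of the G27 genes. Of the 10 others in M21, none was low in all 3 G27 libraries, and their means in G27 had a median of 0.402. Of the 8 others in G27, none was low in all 3 M21 libraries, and the median of their M21 means was 0.765. The genes that missed in one line were thus above the low cut-off in at least 1 library of that line. In the reverse direction, 7 genes were expressed in NC82 and low in M21, and 6 were expressed in NC82 and low in G27. Between the lines, 2 were expressed in M21 and low in G27, and 3 were expressed in G27 and low in M21.

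The cut-offs had close neighbours. There were 24 genes just outside, under 0.2 in each NC82 library and at 0.5 or more in each line library. The one with the highest minimum in the lines was Nitab4.5_0026131g0010, another OB-fold gene, at 3.05, 2.71 and 3.25 in M21, 5.09, 3.33 and 2.87 in G27, and 0.09, 0.02 and 0.1 in NC82, which missed by one NC82 library. Nitab4.5_0000131g0190 has the same GRF-type zinc finger as a gene inside and stood at 1.81, 2.69 and 2.67 in M21, 5.31, 5 and 4.16 in G27, and 0.04, 0.12 and 0.08 in NC82. The Mutator transposase gene Nitab4.5_0002387g0080 stood at 3.6, 3.17 and 4.4 in M21, 3.19, 2.09 and 1.95 in G27, and 0.17, 0.1 and 0.1 in NC82. Other genes outside were listed at 0 in NC82 and dipped under 1 in the lines. Nitab4.5_0000548g0080, with a ribonuclease H-like domain, had 1.54, 0.99 and 1.58 in M21 and 1.42, 0.93 and 1.5 in G27. Nitab4.5_0002218g0020, without a domain, had 5.09, 3.65 and 8.17 in M21 and 2.08, 1.6 and 0.92 in G27. Genes without an annotated domain made up 10 of the 24, against 2 of the 8 inside, 14.3% of all genes tested and 28.5% of all genes in the table. Both sets were picked from the whole table.

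The other 5 of the 10 closest genes were Nitab4.5_0000895g0030 (2.8 in M21, 4.09 in G27 and 0.11 in NC82 on average), Nitab4.5_0007184g0030 (1.66, 2.04 and 0.09 in the same order), Nitab4.5_0001884g0040 (2.07, 1.54 and 0.103), Nitab4.5_0004762g0050 (1.18, 1.21 and 0.09) and the flavodoxin-domain gene Nitab4.5_0004721g0020 (1.75, 1.68 and 0.08). All but the last lack an annotated domain. Inside the cut-offs, the members nearest to them were Nitab4.5_0001119g0120, with an NC82 maximum of 0.06, and Nitab4.5_0008086g0060, with a line minimum of 1.1.

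Whether M21 and G27 expressed the 8 genes at different levels was tested with limma on log2(value + 1) over all 33188 genes. One gene passed at an adjusted p under 0.05, against 11.9% of all genes tested, of which 5.47% were called higher and 6.4% lower in M21. The cut-off of 1 in both lines had dropped genes low in 1 line, so the 8 are not a like set for this share. Nitab4.5_0001119g0120 averaged 4.84 ± 0.308 in M21 and 1.42 ± 0.102 in G27 (SD, n = 3 each), a ratio of 3.42. Its log2 change was 1.27 (SE 0.09, 95% interval 1.07 to 1.48), with a limma adjusted p of 6.2e-05. Since the spread is shared with NC82, where the gene hardly varied, the fit was repeated on the 6 M21 and G27 libraries alone, and the limma adjusted p was 0.00029. The groups did not overlap for this gene, as for 28.6% of all genes tested.

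The other 7 genes did not pass, and their intervals were of unequal width. For the FAR1-domain gene, the mean was 11 ± 8.7 in M21 and 16.4 ± 3.34 in G27 (SD, n = 3 each), and the log2 change of -0.78 had a 95% interval of -1.65 to 0.09 (limma adjusted p = 0.25). The size of this change depended on which M21 libraries were kept. Without M21 replicate 1 it was -0.28 (limma adjusted p = 0.67), and without M21 replicate 3 it was -1.34 (limma adjusted p = 0.008). Without the 3 libraries that lay apart on the third component it was -1.23 (limma adjusted p = 0.018). For the kinase the interval was -0.06 to 0.6 around 0.27, and for the C2-domain gene -0.33 to 0.73 around 0.2. The zinc finger gene had an interval of -0.68 to 0.41 around -0.13. Narrower intervals were found for the OB-fold gene (-0.3 to 0.48), Nitab4.5_0015229g0010 (-0.39 to 0.32) and Nitab4.5_0008086g0060 (-0.21 to 0.28), which leave room for log2 differences of up to 0.48, 0.39 and 0.28 in size. All these intervals share their spread with NC82, where the cut-offs held the 8 genes near 0, so they may be too narrow. The same holds for the refits of the FAR1-domain gene. On the M21 and G27 libraries alone, with none left out, its limma adjusted p was 0.31. The median log2 change of the 8 genes was 0.06, beside -0.01 for all genes tested.

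**Figure D3:**
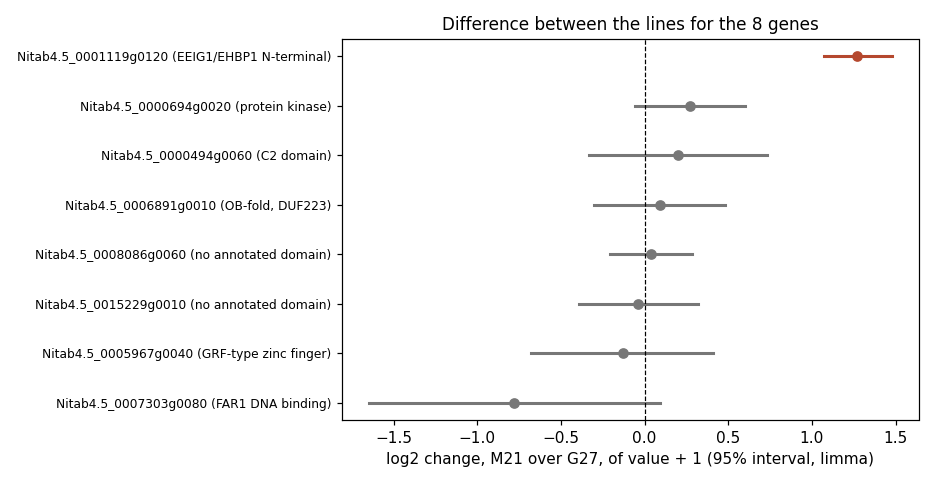
Log2 change of value + 1 in M21 over G27 (horizontal axis) for the 8 genes, with 95% intervals from limma on all 9 libraries. Only the interval of Nitab4.5_0001119g0120, in red, lies clear of 0 (1.07 to 1.48).

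The libraries that lay apart were compared with the spread within the lines. M21 replicate 3 held the highest M21 value in 6 of the 8 genes, against 47.1% of all genes tested, and G27 replicate 1 the highest G27 value in 5 of 8, against 44.7%. Ties were counted, and in Nitab4.5_0008086g0060 M21 replicate 3 was level with M21 replicate 1 at 1.42. Both held for the FAR1-domain, OB-fold and C2-domain genes, 3 of 8, against 27.8% of all genes tested. Summed over the 8 genes, the level was 26.36, 26.02 and 45.86 in M21 replicates 1 to 3, 39.55, 32.49 and 29.14 in G27, and 0.12, 0.1 and 0.04 in NC82. The part of these libraries in the spread was not tested.

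Genes with the same set of domains as a member were examined next, to see whether other genes of its family were higher in the lines. The kinase, C2 and zinc finger families had more members called higher than the 13.0% of all genes tested in M21 against NC82 and the 7.87% in G27 against NC82. Both comparisons use the same NC82 libraries. A gene could also enter the test through its line libraries alone, and one near 0 in NC82 can hardly be called lower. At 1 or more in every NC82 library were 15 of the 22 kinase relatives tested, 52 of the 57 C2 relatives and 12 of the 18 zinc finger relatives. The counts of rises and falls are therefore not on a like footing with all genes tested. Of 35 genes with the kinase's domains, 22 could be tested, and 13 rose and 1 fell in M21 while 9 rose and 1 fell in G27. Their median log2 change was 0.44 in M21 and 0.28 in G27. Among them Nitab4.5_0016409g0010 averaged 5.39 ± 0.835 in M21, 6.23 ± 1.25 in G27 and 1.78 ± 0.0802 in NC82 (SD, n = 3 each). Its limma adjusted p was 0.0001 in M21 and 5.2e-05 in G27 against NC82. Nitab4.5_0009314g0050 averaged 8.47 in M21, 6.79 in G27 and 4.52 in NC82, and Nitab4.5_0001536g0030 averaged 1.25, 1.57 and 0.487 in the same order. The 35 relatives together summed to 149.21, 135.72 and 149.31 in M21, 140.13, 134.97 and 129.49 in G27, and 105.87, 109.28 and 107.68 in NC82, so every line library was above every NC82 library. The member itself added 1.03% to 1.65% of the family's total in M21 and 0.85% to 1.24% in G27.

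Of 117 other C2-domain genes, 57 could be tested, and 20 rose and 2 fell in M21 while 12 rose and 6 fell in G27. Over all genes tested, 11.3% fell in M21 and 6.05% in G27, so falls as well as rises were above that share among the C2 relatives in G27. The 117 genes together summed to 822.47, 817.62 and 844.82 in M21, 678.01, 752.99 and 706.32 in G27, and 708.97, 734.79 and 753.18 in NC82. Every M21 library was above every NC82 library, while G27 and NC82 overlapped. Nitab4.5_0000051g0380 averaged 7.67 ± 1.94 in M21, 9.54 ± 1.22 in G27 and 0.733 ± 0.0874 in NC82 (SD, n = 3 each), a log2 change of 2.3 in M21 and 2.6 in G27 (limma adjusted p = 3.4e-06 and 2.3e-06). Nitab4.5_0000238g0020 averaged 3.36 in M21, 3.56 in G27 and 0.437 in NC82. Nitab4.5_0024229g0010 averaged 11.4 in M21, 15.4 in G27 and 4.63 in NC82, and its log2 change in M21 over G27 was -0.41 (limma adjusted p = 0.017). These 3 genes were higher in both lines and kept a measurable level in NC82.

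The GRF-type zinc finger family was mostly at 0. Of 265 other genes, 205 were at 0 in all 9 libraries, beside 28.5% of all genes in the table. Of the 18 that could be tested, 7 rose and 0 fell in M21 and 5 rose and 0 fell in G27. Only 12 of the 18 stood at 1 or more in every NC82 library, so for the rest a fall could hardly be called. Their summed level was 101.69, 118.37 and 137.17 in M21, 130.02, 104.8 and 101.09 in G27, and 88.72, 80.19 and 85.4 in NC82. M21 replicate 3 and G27 replicate 1 were again the highest of their groups. Nitab4.5_0003815g0120 reached 1 in M21 libraries only, at 3.92, 4.16 and 4.75 in M21, 0, 0.15 and 0 in G27 (in the order of replicates 1 to 3), and 0 in NC82. Its log2 change in M21 over G27 was 2.33 (SE 0.11, limma adjusted p = 2.5e-06). Nitab4.5_0000131g0190, given above as just outside the cut-offs, went the other way between the lines, with a log2 change of -0.79 in M21 over G27 (limma adjusted p = 0.0032). Nitab4.5_0006600g0020 averaged 16.3 in M21, 15.1 in G27 and 9.02 in NC82. How reads were divided among such similar genes is not given in the sources used here.

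Without the 3 libraries that lay apart, 3226 genes were called higher and 3293 lower of 32385 tested in M21 against NC82, and 1861 and 1765 in G27 against NC82. In this fit the kinase relatives had 10 higher and 1 lower of 20 in M21 and 7 and 0 in G27. The C2 relatives had 17 and 3 of 55 in M21 and 10 and 3 in G27. The zinc finger relatives had 5 and 1 of 16 in M21 and 2 and 1 in G27. Under median-ratio scaling, the zinc finger relatives had 7 higher and 1 lower of 18 in M21 and 4 and 0 in G27. The kinase relatives had 13 and 1 of 22 in M21 and 9 and 1 in G27. The C2 relatives had 19 and 2 of 57 in M21 and 11 and 6 in G27.

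Of 29 genes with the EEIG1/EHBP1 domain besides the member, 24 could be tested, of which 1 rose and 3 fell in M21 and 1 rose and 2 fell in G27. That is 16.7% and 12.5% called, beside 24.3% and 13.9% of all genes tested. Under median-ratio scaling 5 fell in M21 and 4 in G27. Over all genes tested this scaling also gave more falls, 4379 against 3738 in M21 and 2485 against 2008 in G27. No relative passed in M21 against G27 by limma, beside 11.9% of all genes tested, and 5 had an unadjusted p under 0.05. The rising relative was Nitab4.5_0004032g0050, at 15.3 in M21, 13.7 in G27 and 10.7 in NC82 on average, and among those that fell in M21 was Nitab4.5_0000220g0030, at 3.33, 4.23 and 5.31. The member held 3.4% to 3.66% of this family's total in M21 and 1.04% to 1.09% in G27. Of 62 other FAR1-domain genes, 46 were at 0 throughout and 12 could be tested. None of the 12 was called by limma in any of the 3 comparisons, with 2 at an unadjusted p under 0.05 in M21 against NC82, 0 in G27 against NC82 and 1 in M21 against G27. Over all genes tested, 24.3%, 13.9% and 11.9% were called in these comparisons, so few calls would be looked for among 12 genes. The member was the highest of the 63 genes on average in the lines, with 8.68% to 32.4% of the family's total in M21 and 26.2% to 32.4% in G27. The 35 other genes with the OB-fold and DUF223 were too low to be tested and 24 were at 0 throughout. The member alone held 91.4% to 95.2% of that family's total in M21 and 68.4% to 88.0% in G27.

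**Figure D4:**
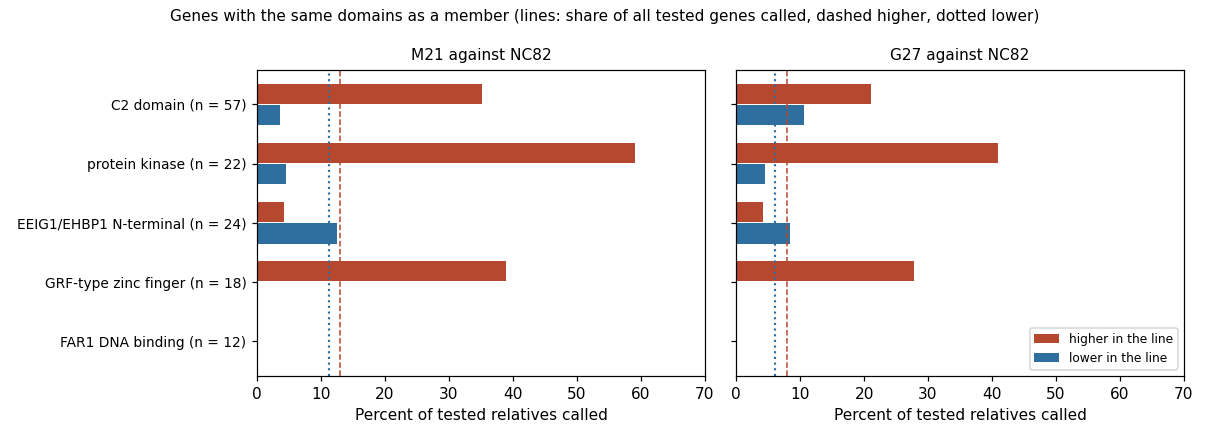
Percent of tested genes with the same domains as a member (horizontal axis) that limma called higher (red) or lower (blue) in M21 against NC82 and in G27 against NC82, members left out. Dashed and dotted lines give the same percent over all 33188 genes tested (13.0% higher and 11.3% lower in M21, 7.87% and 6.05% in G27); kinase, C2 and zinc finger families exceed the dashed lines.

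Position was read from the identifiers, which carry a scaffold number and a gene number along it. The 8 genes lie on 8 scaffolds, so none neighbours another, and Nitab4.5_0015229g0010 is alone on its scaffold in the table. Of the 11 genes directly next in number to a member, 4 were at 0 in all 9 libraries and 7 could be tested. Of these 7, 1 was called in M21 against NC82 and 0 in G27 against NC82 by limma, where 1 had an unadjusted p under 0.05. Over all genes tested the shares were 24.3% and 13.9%, so these counts do not set the flanking genes apart. The gene called against NC82 was the prohibitin Nitab4.5_0000494g0070, next to the C2-domain gene, and it was lower in M21, at 10.6 ± 0.441 against 13.3 ± 1.28 in NC82 (SD, n = 3 each). On the other side of the C2-domain gene, the biotin ligase Nitab4.5_0000494g0050 averaged 6.47 in M21, 6.36 in G27 and 5.66 in NC82. The cytochrome P450 gene Nitab4.5_0001119g0110, next to the EEIG1/EHBP1-domain gene, was higher in M21 than in G27, as its neighbour was, at 1.3 ± 0.241 in M21 and 0.633 ± 0.174 in G27 (SD, n = 3 each), where the log2 change was 0.5 (limma adjusted p = 0.029). Against NC82, at 0.81 ± 0.14 (SD, n = 3), it was not called in either line.

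Over all 65 other genes of these scaffolds, 47 were tested. In M21 against NC82, 10 rose and 5 fell, which is 31.9% called against 24.3% of all genes tested. In G27 against NC82, 6 rose and 5 fell, 23.4% against 13.9%. Without the 3 libraries that lay apart, 24.4% and 15.6% were called, against 20.1% and 11.2% of all genes. The scaffold of the kinase gave most of the rises, with 6 of 17 higher and 0 lower in M21. One was another protein kinase gene, Nitab4.5_0000694g0050, 3 gene numbers away, at 15.87, 11.73 and 14.66 in M21, 12.85, 11.92 and 11.59 in G27, and 5.56, 6.48 and 5.79 in NC82 (limma adjusted p = 3.7e-05 in M21 and 0.00018 in G27). On the scaffold of the EEIG1/EHBP1-domain gene, 0 rose and 2 fell of 11 in M21, and 0 rose and 3 fell in G27. That is 18.2% and 27.3% called, beside 24.3% and 13.9% of all genes tested. The metal transporter gene of the NRAMP family Nitab4.5_0001119g0080 fell in both, at 7.84 in M21, 6.97 in G27 and 14.8 in NC82 on average. The scaffolds of 2 of the 8 genes, the zinc finger and FAR1-domain genes, carry another gene described as a mobile element, which is 25.0%, against 17.0% of all genes tested. Genes with mobile-element descriptions, leaving out the FAR1-domain member, had 16 called higher and 8 lower of 198 in M21 and 11 and 7 in G27. That is 12.1% called in M21 and 9.09% in G27, below the 24.3% and 13.9% of all genes tested. The words used for mobile elements include FAR1, so these shares and the scaffold count also take in the FAR1-domain family. None of its 12 other genes tested was called, so the shares are not those of transposons alone.

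Across the other 33180 genes tested, the 5 whose log2 values followed the mean profile of the 8 most closely over the 9 libraries were ranked by Pearson's r, which mostly reflects the step between NC82 and the lines. First was Nitab4.5_0005289g0010 (r = 0.9988), a glycoside hydrolase of family 35, the family of plant beta-galactosidases, at 12.51, 10.7 and 15.93 in M21, 12.72, 9.72 and 10.81 in G27, and 1.02, 1.21 and 1.08 in NC82. Next were Nitab4.5_0002308g0090 (r = 0.9965), a kinase with a bulb-type lectin domain, and Nitab4.5_0002405g0040 (r = 0.9956), a kinase with leucine-rich repeats. They averaged 2.71 in M21, 2.66 in G27 and 0.633 in NC82, and 1.33, 1.23 and 0.177. The ABC transporter gene Nitab4.5_0000785g0120 (r = 0.9944) averaged 11.6 in M21, 11.2 in G27 and 4.96 in NC82. The ribonuclease H-like gene Nitab4.5_0000896g0020 (r = 0.9943) averaged 5.17, 4.59 and 0.667. None of the 5 differed between M21 and G27 past the threshold, but being picked for a close match to this profile left little room for such a difference. Unlike the 8 genes, they stood at 0.12 or more in every NC82 library.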

How the data were processed

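Young leaf RNA of 3 genotypes was sequenced, with 3 libraries each. HISAT2, StringTie and RSEM appear in the submitters' processing notes without versions or roles. Build, annotation and strand were not given in the sources used here. In the deposited files, the table holds 1 depth-scaled expression signal per gene and library, rounded by the authors to 2 decimals, with no unit in its header, so TPM and FPKM cannot be told apart. Its 3 group mean columns were not used. The table gives no counts, so no counting intervals can be given. Relative depth was estimated from the most common ratio to NC82 replicate 1 among genes with few reads.

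Genes at 1 or more in at least 3 libraries (33188) were tested. The log2 of value plus 1 was fitted over all 9 libraries with limma 3.58.1 (empirical Bayes with a trend) in R 4.3.3, two-sided, with Benjamini-Hochberg adjustment over all of them, and called at an adjusted p under 0.05. The pseudocount makes log2 changes of low genes smaller than the ratios of their means. The method was tested on simulated data. Figures were drawn with matplotlib 3.10.9. Replicate numbers were not taken to pair samples, since the deviations of same-numbered samples correlated at -0.21 to 0.34 and 3 of 9 pairs exceeded 0.1.

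The 8 genes, lists and tests were chosen with earlier results of these data known. Named genes are the 8 and the 10 nearest outside the cut-offs by line minimum. Up to 3 called genes per member with the same domains or scaffold number, by p or by distance, were named, as were the 5 most alike in profile and the genes of other arrangements. Genes next in number to a member and Nitab4.5_0000494g0050 were added after their values were seen. Relatives hold the same set of domain names in any order. No sequence of these genes was at hand, so none is shown.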

Additional observations from a re-analysis of the deposited data

Results flagged for a closer look

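Nitab4.5_0001119g0120, the EEIG1/EHBP1-domain gene, differed in its rise over NC82 between the 2 lines. The test of that difference is M21 against G27, where the log2 change was 1.27 (limma adjusted p = 6.2e-05), with 3 of 3 M21 libraries above every G27 library. It is 1 of 8 genes tested for this, and 11.9% of all genes passed the same test. The cut-offs for the 8 had left out genes low in 1 line.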

How the results depend on the processing

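The number of genes meeting the cut-offs depended on them. It was 8 as reported, 5 with NC82 listed at 0, 65 with NC82 under 0.5, 12 with the lines at 0.5 or more, 3 with the lines at 2 or more, 8 to 12 leaving out 1 library, and 13 without the 3 libraries that lay apart, an alternative chosen after seeing the data. Between 2283 and 4208 genes were called in M21 against G27 leaving out 1 library, the lowest without M21 replicate 1, against 3941 with all. Leaving out 1 library gave 5874 to 8371 in M21 against NC82, against 8064 with all, and 3251 to 4750 in G27 against NC82, against 4620 with all. With a replicate block, 3720, 7846 and 4443 genes were called in these comparisons, and no call of the 8 genes changed. Of 120 refits of the 8 genes in M21 against G27, 111 kept direction and call. In many of these the direction could not change. With no filter, a replicate block, the M21 and G27 libraries alone, or 1 NC82 library left out, the log2 change stays the same and only the p-value can move. The EEIG1/EHBP1-domain gene ranged over 1.23 to 1.7, with limma adjusted p of 5.3e-05 to 0.00099. Sign changes, all in genes with no call, came without 1 library: the zinc finger gene at 0.21 without M21 replicate 2 (range -0.44 to 0.21), the OB-fold gene at -0.05 without M21 replicate 3 and -0.04 without G27 replicate 2 (range -0.05 to 0.29), Nitab4.5_0008086g0060 at -0.02 without G27 replicate 3 (range -0.02 to 0.09), and Nitab4.5_0015229g0010 at 0.01, 0.0 and 0.15 without M21 replicate 1, M21 replicate 2 and G27 replicate 3 (range -0.21 to 0.15). The cause was not tested. Without counts, values near 0 in NC82 cannot be turned into reads.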
